A study of Chlamydomonas reinhardtii with 18 samples.

Results

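Between 5 min and the samplings at 10 and 15 min after Chlamydomonas cells were put into iron-free medium, 97 of 12580 genes (0.771%) differed by at least 2-fold. The comparison sets the mean of log2(FPKM + 1) at 10 and 15 min against log2(FPKM + 1) at 5 min, where FPKM are fragment counts divided by transcript length and by the number of mapped fragments. It uses 6 of the study's 18 samples, and it covers the 12580 of 17741 genes in the deposited table that reached 1 FPKM in at least 2 of the 9 sampling points. At 10 and 15 min, 44 genes (0.35%) were 2-fold higher and 53 (0.421%) were 2-fold lower than at 5 min.

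The study sequenced poly(A) RNA from the green alga Chlamydomonas reinhardtii, a single-celled organism, in strain CC-4532. The cells came from acetate-containing TAP medium at 24 °C under continuous light of about 90 µmol photons m-2 s-1, were spun down at 2500 g for 5 min, and were washed 2 times in TAP lacking Fe-EDTA. They then went into TAP with 0 µM Fe-EDTA and were sampled at 7 times up to 240 min, with further samples from before and straight after the wash. Each sampling point had 2 cultures. The 10, 15 and 5 min groups share strain, wash, light and iron-free medium and differ in time alone. No culture was transferred to medium with iron, so time in fresh medium and lack of iron cannot be told apart, and the sources used here do not give the iron supply before the wash.

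Every value is the authors' combined FPKM for both cultures of a sampling point. There is therefore no replicate error and no test, depth is unknown, and genes are described as higher or lower by size only. Across all genes the difference had a median of -0.01 and a robust SD of 0.239 on the log2(FPKM + 1) scale. The columns at 15 and 10 min differed from each other with a robust SD of 0.168, and 7 genes (0.0556%) were 2-fold apart. That was the narrowest spread of any neighbouring pair of sampling points, whose 2-fold counts otherwise ran from 49 genes at 10 against 5 min to 1214 genes at post-wash against pre-wash. Column sums at 10, 15 and 5 min were 762490, 740934 and 757819 FPKM.

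Several of the genes below belong to systems that Chlamydomonas is known to adjust when CO2, light or oxygen alter. Its CO2-concentrating mechanism pumps bicarbonate towards the pyrenoid, the Rubisco compartment of the chloroplast, and uses carbonic anhydrases to release CO2 there. Its LHCSR proteins dissipate excess light energy at the antenna. In the dark without oxygen it makes iron hydrogenases, which need the maturation factors HYDEF and HYDG, and in acetate medium it uses the glyoxylate cycle to build sugars from acetate.

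**Figure D1:**
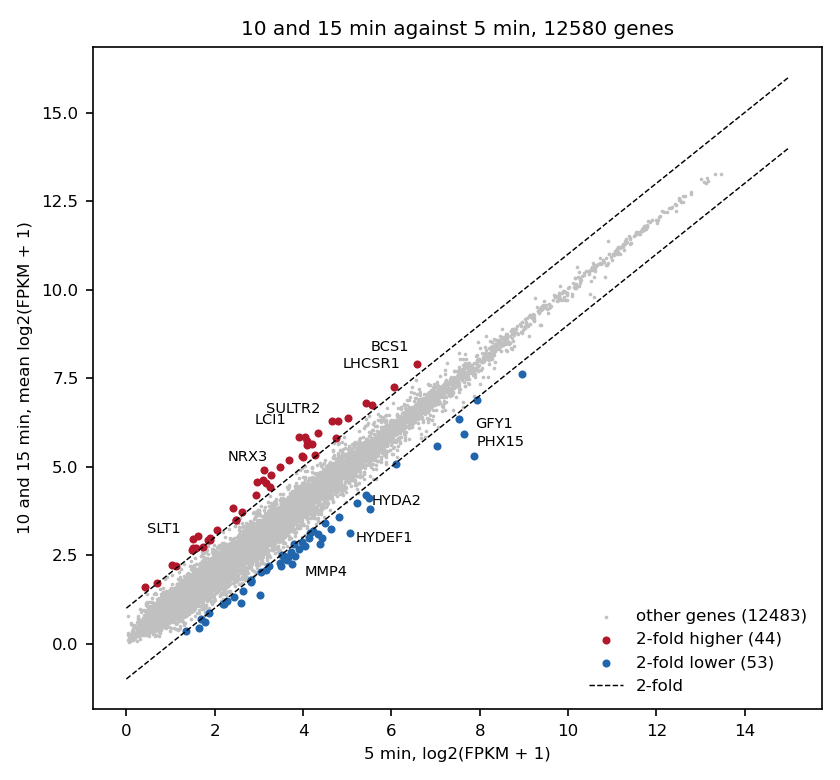
Each of 12580 genes is a point, with log2(FPKM + 1) at 5 min on the horizontal axis and the mean of log2(FPKM + 1) at 10 and 15 min on the vertical axis, and dashed lines mark 2-fold. The 44 red genes lie above and the 53 blue genes below the band, and LCI1 among the higher and PHX15 among the lower genes stand furthest out of the labelled ones.

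LCI1 (Cre03.g162800), a low-CO2-inducible membrane protein of inorganic carbon uptake, had the largest difference of any higher gene. It stood at 42.9 FPKM at 10 min and 74.3 at 15 min, against 13.9 at 5 min, a difference of 1.95 on the log2(FPKM + 1) scale. For later genes this difference, 10 and 15 min minus 5 min, stands in parentheses or after "at". In the other columns it had 0.390 FPKM before the wash and 1.57 after it, then 341 FPKM at 30 min, 355 at 60 min, 539 at 120 min and finally 682 at 240 min. It was higher at each sampling point than at the one before, and it was 1 of 2 higher genes with their peak at 240 min.

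The neighbouring nucleoredoxin genes NRX2 (Cre02.g093750) and NRX3 (Cre02.g093800) were also among the higher genes. Nucleoredoxins are thiol oxidoreductases of the thioredoxin family. NRX2 had 48.2 FPKM at 10 min and 76.8 at 15 min, against 19.2 at 5 min (difference 1.62). NRX3 had 26.0 and 36.0 FPKM at 10 and 15 min, against 10.2 at 5 min (1.50). NRX3 was highest at 15 min, while NRX2 reached 130 FPKM at 30 min, and at 240 min they were at 10.7 FPKM (NRX2) and 3.07 FPKM (NRX3). Of 35 nucleoredoxin, thioredoxin and peroxiredoxin genes kept, these 2 were 2-fold higher, against 0.35% of all genes, and 0 were 2-fold lower, against 0.421%. The others lay between NTR2, an NADPH-dependent thioredoxin reductase at -0.62, and TRX19 at 0.56, and the list median was 0.04.

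Sulfate uptake was represented by the transporter SULTR2 (Cre17.g723350) and the sodium/sulfate co-transporter SLT1 (Cre12.g502600), both known for their induction under sulfur starvation. SULTR2 was at 59.1 FPKM at 10 min and 99.7 at 15 min, against 24.4 at 5 min (1.62). SLT1 was at 4.89 and 9.01 FPKM at 10 and 15 min, against 1.85 at 5 min (1.43). The remaining members of the list were spread around 0. SLT3 had a difference of 0.59 and SULP3, a subunit of the chloroplast sulfate importer, one of 0.53, while the transporter SULTR1 (22.9 and 23.8 FPKM at 10 and 15 min, against 23.2 at 5 min) stood at 0.01. SAC1, a regulator of the sulfur-starvation response, was at -0.27. In this list 2 of 21 genes were 2-fold higher, against 0.35% of all genes, and 0 lower, against 0.421%. The list median was -0.01, that of all genes.

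Photoprotection was the list with the highest median, 0.49. Of its 10 kept genes, 3 were 2-fold higher, against 0.35% of all genes, and 0 lower, against 0.421%. LHCSR1 (Cre08.g365900) had 122.9 FPKM at 10 min and 186 at 15 min, against 66.0 at 5 min (1.18). LHCSR3.1 (Cre08.g367500) had 33.3 and 41.6 FPKM at 10 and 15 min, against 15.1 at 5 min (1.25). Its near-identical neighbour LHCSR3.2 had 47.0 and 52.5 FPKM, against 27.2 at 5 min (0.85), and how reads were divided between this pair is uncertain. ELI5, with the symbol of the early light-inducible proteins, had 6.20 and 6.94 FPKM, against 2.59 at 5 min (1.08). The other early light-inducible and one-helix genes lay between -0.20 (ELI3) and 0.51 (ELI6), and 9 of the 10 genes were above 0, against 47.7% of all genes.

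In the carotenoid pathway, CBH1 (Cre04.g215050), the beta-carotene hydroxylase that leads to zeaxanthin, had 28.1 FPKM at 10 min and 45.1 at 15 min, against 11.9 at 5 min (1.51). It was the single 2-fold gene of 10 kept, against 0.771% of all genes. Zeaxanthin epoxidase ZEP1 (0.50), phytoene synthase PSY1 (0.49), at the entry of the pathway, and lycopene epsilon cyclase LCYE1 (0.40) followed at smaller differences. All 10 genes were higher at 15 min than at 10 min, against 48.8% of all genes. CBH1 had its lowest value after the wash and its highest, 90.9 FPKM, at 30 min, with 16.0 FPKM in the pre-wash column, 58.9 at 60 min, 24.2 at 120 min and 39.8 in the last column, so its 10 and 15 min values lay between these extremes.

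**Figure D2:**
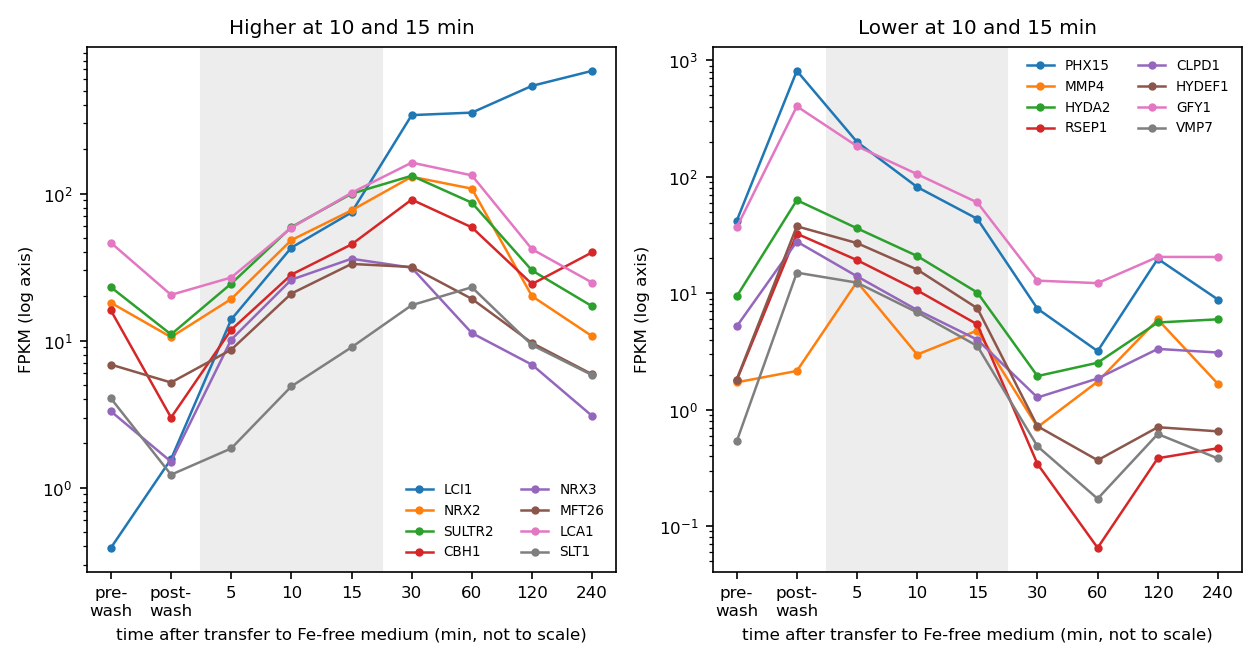
FPKM on a log axis in the 9 sampling points, in time order and not to scale, with 1 combined value per point. Shown are the 8 named genes with a symbol that differed most upwards (left) and downwards (right), with 5, 10 and 15 min shaded. All 8 lines on the left are higher at 10 and 15 min than at 5 min, and on the right MMP4 alone is higher at 15 min (4.78 FPKM) than at 10 min (2.97 FPKM).

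The other higher genes with a symbol were of mixed function. BCS1 (Cre05.g234661), an assembly factor of the mitochondrial cytochrome bc1 complex, was the most abundant of the 44, with 184 FPKM at 10 min and 309 at 15 min, against 95.4 at 5 min (1.31). GPD2, a glycerol-3-phosphate dehydrogenase, had 16.5 and 30.4 FPKM, against 8.01 at 5 min (1.38). COQ5A, a methyltransferase of ubiquinone synthesis, had 5.74 and 7.72 FPKM, against 2.71 at 5 min (1.05). The zinc transporter gene ZRT1 had 9.30 and 11.4 FPKM, against 4.57 at 5 min (1.02), and was 1.61 FPKM at 60 min and 0.651 at 240 min. MFT26 (1.50) and LCA1 (Cre02.g106450, 1.48) have a symbol but no deposited product. Also past 2-fold were TRZ1, an RNase Z-like protein, and CGL80, a predicted protein, both at 1.00.

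Of the 44 higher genes, 27 had neither a symbol nor a product, and 38.6% had a symbol, against 35.2% of all genes kept. Cre12.g510500 stood at 22.4 and 37.2 FPKM at 10 and 15 min, against 7.71 at 5 min (1.78). Cre12.g505050 stood at 41.3 and 75.0 FPKM, against 15.6 at 5 min (1.77). These genes have no annotated role in the table, and their differences were second only to that of LCI1. Cre17.g725750 (1.64), Cre05.g239450 (1.60) and Cre06.g298850 (1.54) came after them.

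Of 23 genes of the carbon-concentrating list, 1 was 2-fold higher (LCI1), against 0.35% of all genes, and 0 lower, against 0.421%. At a lower bar of 1.5-fold, chosen after the data were seen, 6 were higher, against 1.92% of all genes, and 1 was lower, against 2.73%. Above 0 were 17 of the 23, against 47.7% of all genes, and the median was 0.38. The carbonic anhydrases of this list split. CAH1, the periplasmic enzyme, had 128 FPKM at 10 min and 180 at 15 min, against 87.4 at 5 min (0.79). The mitochondrial enzymes CAH4 (76.6 and 102 FPKM, against 50.9 at 5 min, 0.78) and CAH5 (71.1 and 90.0 FPKM, against 42.1 at 5 min, 0.91) were similar, and as near-identical neighbours their reads may be divided wrongly. CAH3, the enzyme of the thylakoid lumen, was at 0.51. CAH6 had 108 and 84.9 FPKM, against 167 at 5 min (-0.79), and CAH2, CAH7 and CAH8 lay between -0.28 and -0.03.

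The inorganic carbon transporters HLA3 and NAR1.2 differed little between 10 and 15 min, unlike LCI1. HLA3, an ABC transporter of the plasma membrane, had 31.8 and 31.9 FPKM at 10 and 15 min, against 20.6 at 5 min (0.61). NAR1.2, the anion transporter also called LCIA, had 363 and 369 FPKM, against 248 at 5 min (0.56). CCP1 was at 0.74 and its near-identical relative CCP2 at 0.38, with the same reservation on shared reads. The pyrenoid-associated proteins LCIB (2495 and 2801 FPKM, against 1918 at 5 min, 0.46) and LCIC (0.44) were near each other, while LCID was at 0.13. Of the regulators, CCM1, which controls CO2-responsive genes, was at 0.16, and LCR1, a Myb factor, had 78.2 FPKM at 10 min and 61.3 at 15 min, against 73.9 at 5 min (-0.09). LCR1 and LCID thus had their highest value of the course at 10 min, as did CCP2 at 484 FPKM, whereas LCI1, CAH1, CAH4 and CAH5 were highest at 240 min.

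**Figure D3:**
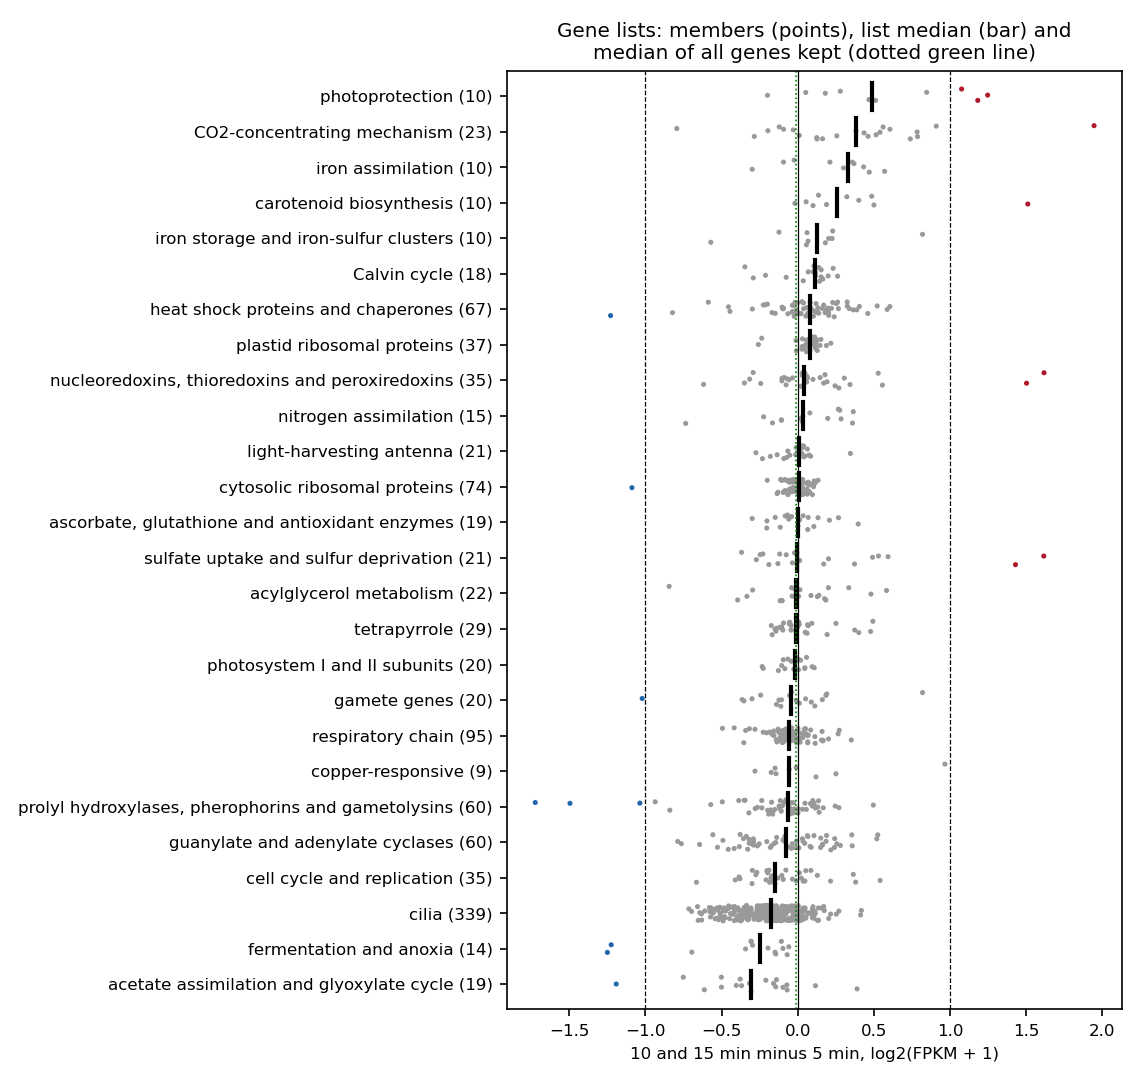
Members of the 26 gene lists are points at their difference of 10 and 15 min minus 5 min on the log2(FPKM + 1) scale, with the list median as a bar, the number of genes kept in parentheses, dashed lines at 2-fold, and red or blue points past it. Photoprotection and the CO2-concentrating mechanism have the highest medians (0.49 and 0.38), and acetate assimilation and fermentation the lowest (-0.31 and -0.25).

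On the lower side, PHX15 (Cre10.g443050), which carries the symbol of the prolyl hydroxylases that modify cell wall proteins, had the largest difference of any gene with a symbol. It stood at 81.6 FPKM at 10 min and 43.5 at 15 min, against 199 at 5 min (-1.72). It had 41.8 FPKM in the pre-wash column and 811 in the post-wash column, and later 7.36 FPKM at 30 min, 3.18 at 60 min, 19.7 at 120 min and finally 8.83 at 240 min. At 15 min it was thus close to its level before the wash, and at all later points it was below it. PHX4 (-0.84), PHX5 (-0.57) and PHX8 (-0.49) were below 0 and within 2-fold.

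A group of 3 metalloproteinase genes of the gametolysin family, whose members act on the cell wall matrix, were among the named lower genes. MMP4 had 2.97 FPKM at 10 min and 4.78 at 15 min, against 12.5 at 5 min (-1.49), and was highest of the whole course at 5 min. MMP7 had 3.02 and 1.94 FPKM, against 6.04 at 5 min (-1.04), and MMP6 had 3.91 and 2.35 FPKM, against 6.75 at 5 min (-0.94). Of 60 cell wall genes kept, PHX15, MMP4 and MMP7 were 2-fold lower, against 0.421% of all genes, and 0 were higher, against 0.35%. Below 0 were 42 of the 60, against 52.3% of all genes, and the median was -0.06.

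Every one of the 14 fermentation and anoxia genes was below 0, against 52.3% of all genes, with a median of -0.25. Of them 2 were 2-fold lower, against 0.421% of all genes. HYDA2 (Cre09.g396600), an iron hydrogenase, had 20.9 FPKM at 10 min and 10.1 at 15 min, against 36.1 at 5 min (-1.25). HYDEF1 (Cre06.g296750), a hydrogenase maturation factor, had 16.0 and 7.43 FPKM, against 26.9 at 5 min (-1.22). HYDG1, the other maturation factor, had 186 and 136 FPKM, against 258 at 5 min (-0.70), and the hydrogenase HYDA1 had 341 and 280 FPKM, against 392 at 5 min (-0.34). The enzymes of ethanol, formate and acetate formation differed less, from -0.31 (ACK1, acetate kinase) to -0.06 (PNO1), with the pyruvate formate lyase gene PFL1 at -0.11 and the alcohol dehydrogenase gene ADH1 at -0.15. All 14 genes were lower at 15 min than at 10 min, against 51.2% of all genes. HYDA1 had its course maximum at 5 min, with 391 FPKM post-wash, whereas HYDA2 (62.9 FPKM) and HYDEF1 (37.5 FPKM) were already below their post-wash values at 5 min.

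Of 19 genes of acetate use, 17 were below 0, against 52.3% of all genes, and the median was -0.31. Among the 19, 1 was 2-fold lower, against 0.421% of all genes, and 3 were 1.5-fold lower, against 2.73%. The 2-fold gene, GFY1 (Cre17.g700450), one of a family of putative acetate transporters, had 105 FPKM at 10 min and 60.1 at 15 min, against 183 at 5 min (-1.19). GFY2 had 69.1 and 51.2 FPKM, against 101 at 5 min (-0.75). Isocitrate lyase ICL1, the first glyoxylate cycle enzyme, had 1111 and 801 FPKM, against 1443 at 5 min (-0.61), and malate synthase MAS1, which follows it, was at -0.40. Acetyl-CoA synthetase ACS3, which activates acetate, was at -0.50. ICL2 (0.39) and FBP2 (0.12) were the exceptions. This list shares ACK1, ACK2, PAT1 and PAT2 with the fermentation list.

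Cilia genes formed the largest list, and most were slightly below 0. Of 339 kept, 286 were below 0, against 52.3% of all genes, and the median was -0.17. Of the 339, 0 were 2-fold higher or lower, against 0.771% of all genes. At 1.5-fold, 8 of the 339 were lower, a share near the 2.73% of all genes, and 0 were higher, against 1.92%. FAP239 had 19.7 and 15.3 FPKM at 10 and 15 min, against 29.1 at 5 min (-0.71), and FAP293 had 12.0 and 9.56 FPKM, against 17.9 at 5 min (-0.70). FAP symbols stand for flagellar associated proteins. The BBSome-linked small GTPase gene BBS3A (-0.66) and FAP260 (-0.65) came next.

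Other lower genes with a symbol had no list in common. CLPD1, a chaperone of the Hsp100 family, had 7.17 and 3.99 FPKM at 10 and 15 min, against 14.0 at 5 min (-1.23). It was the 1 gene of 67 chaperones past 2-fold, against 0.771% of all genes, in a list whose median was 0.08. RSEP1, an intramembrane metalloprotease, had 10.6 and 5.40 FPKM, against 19.2 at 5 min (-1.23). VMP7, a SNARE protein of the endosome, was at -1.16 and HPT1 (Cre10.g435650), a hexose or glycerol-3-phosphate transporter, at -1.15. RPS27E2, an isoform of ribosomal protein S27e, was at -1.09 and the only lower gene with its minimum of the course at 15 min (4.15 FPKM). It stood apart from the other cytosolic ribosomal protein genes, which lay between -0.20 (RPL29) and 0.13 (RPL13A). NSG6 (-1.02), CAM12 (-1.01) and PDE10, a cyclic nucleotide phosphodiesterase (-0.98), closed the named lower genes.

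Among the 53 lower genes, 39 had neither a symbol nor a product, and 26.4% had a symbol. Cre13.g603550 had the largest difference of all 12580 genes, with 55.1 FPKM at 10 min and 26.1 at 15 min, against 233 at 5 min (-2.59). Its pre-wash value was 96.4 FPKM, its post-wash value 783 and its 30 min value 4.32. Cre09.g409650 had 10.2 and 5.69 FPKM, against 32.3 at 5 min (-1.94), and Cre03.g155250 had 18.2 and 9.22 FPKM, against 45.0 at 5 min (-1.71). The most abundant lower gene was Cre02.g105100, named for its level after its values were seen, with 262 and 146 FPKM, against 497 at 5 min (-1.34). It was the 1 gene past 2-fold, in either direction, among the 772 genes with 100 FPKM or more in all 3 columns.

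The other lists had few or no genes past 2-fold. In iron assimilation, 0 of 10 genes were 2-fold higher or lower, against 0.771% of all genes. The list median was 0.33, against -0.01 for all genes. FEA2, an iron-assimilating protein, had 139 and 154 FPKM at 10 and 15 min, against 97.9 at 5 min (0.57). The iron permease FTR1 had 140 and 178 FPKM, against 114 at 5 min (0.47), and its partner ferroxidase FOX1 was at 0.30. The transporter gene IRT1 was barely expressed, with 0.408 and 0.892 FPKM, against 0.209 at 5 min, so its difference of 0.43 is held down by the pseudocount of 1, as is that of the ferric reductase gene FRE1 (0.660 and 0.937 FPKM, against 0.548 at 5 min, 0.21). At 240 min the same genes stood at 379 FPKM (IRT1) and 913 FPKM (FRE1). FEA1 (-0.02), IRT2 (-0.09) and the manganese superoxide dismutase MSD3 (-0.30) were below 0. Of 10 iron storage and iron-sulfur genes, NFU1 (Cre18.g748447) had 24.9 and 31.7 FPKM, against 15.5 at 5 min (0.82), and ISCA2 was at -0.57. Cytochrome c6 gene CYC6, known for its induction in copper deficiency, had 2.00 and 3.54 FPKM, against 0.887 at 5 min (0.97). In FPKM these are 2.25 and 3.99 times the 5 min value, so its difference too is held down by the pseudocount. The copper-responsive list had a median of -0.06.

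Photosynthesis genes outside photoprotection had medians near that of all genes. The antenna (21 genes, median 0.01), photosystem subunit (20, -0.02) and tetrapyrrole (29, -0.01) lists had 0 genes past 2-fold. Against 0.771% of all genes, a count of 0 in lists of this size says little. The Calvin cycle list (18 genes) had a median of 0.12 with Rubisco activase RCA1 at 0.26. In the plastid ribosome list, 33 of 37 genes were above 0, against 47.7% of all genes, with a median of 0.08 and a highest value of 0.22 (PRPL22). Of the 37, 33 were lower at 15 min than at 10 min, against 51.2% of all genes. Respiratory chain genes had a median of -0.06 over 95 genes, with the alternative oxidase AOX1 lowest (89.3 and 70.6 FPKM, against 112 at 5 min, -0.49). The cell cycle list had a median of -0.15 over 35 genes, with the kinase CDKG1 at -0.66 and the transcription factor E2F1 at 0.54. Nitrogen assimilation (15 genes, 0.03), acylglycerol metabolism (22, -0.01), the antioxidant enzymes (19, 0.00) and the guanylate and adenylate cyclases (60, -0.07) had 0 genes past 2-fold, against the same 0.771%. In the gamete list (20 genes, -0.05), which stands for another state a culture could hold, NSG6 alone was 2-fold lower, against 0.421% of all genes. The homeobox gene GSP1, active in plus gametes, had 2.49 and 3.67 FPKM, against 1.29 at 5 min (0.82).

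Between 10 and 15 min the median difference over all genes was near 0, but the 97 genes and several lists lay mostly on one side. All 44 higher genes were higher at 15 min than at 10 min, against 48.8% of all genes, by a median of 0.62. Of the 53 lower genes, 51 were lower at 15 min than at 10 min, against 51.2% of all genes, by a median of -0.56. The same values chose these genes, through the mean of both columns. Across all genes more were 2-fold from 5 min at 15 min (1.69%) than at 10 min (0.39%). Choosing on the mean therefore favours genes further out at 15 min, and the shares of all genes are not a like comparison. The exceptions among the lower genes were MMP4 and Cre07.g334150, which had 5.40 FPKM at 10 min and 6.20 at 15 min, against 15.4 at 5 min. At 10 min alone, 25 genes (0.199%) were 2-fold higher and 24 (0.191%) lower than at 5 min, together 0.39% of genes. At 15 min alone 93 (0.739%) were higher and 120 (0.954%) lower, together 1.69%. Of the 44 higher genes 23 were 2-fold at both points and 21 at 15 min only, and of the 53 lower genes 18 were 2-fold at both and 35 at 15 min only.

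Lists with medians near 0 also differed between these columns. Of the antenna genes, 20 of 21 were lower at 15 min than at 10 min, as were 19 of 20 photosystem subunit genes, 71 of 74 cytosolic ribosomal protein genes and 74 of 95 respiratory chain genes, against 51.2% of all genes. The median differences of 15 minus 10 min were small, from -0.12 in the antenna list to -0.07 in the respiratory chain. The antenna genes changed sides, with 15 of 21 above 5 min at 10 min, against 47.8% of all genes, and 17 of 21 below it at 15 min, against 52.7%, so their median of 0.01 averages over opposite signs. The cytosolic ribosomal protein genes did likewise, with 53 of 74 above 5 min at 10 min and 53 of 74 below it at 15 min. On the other side, all 10 photoprotection genes, 9 of 10 iron assimilation genes and 27 of 35 cell cycle genes were higher at 15 min than at 10 min, against 48.8% of all genes.

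**Figure D4:**
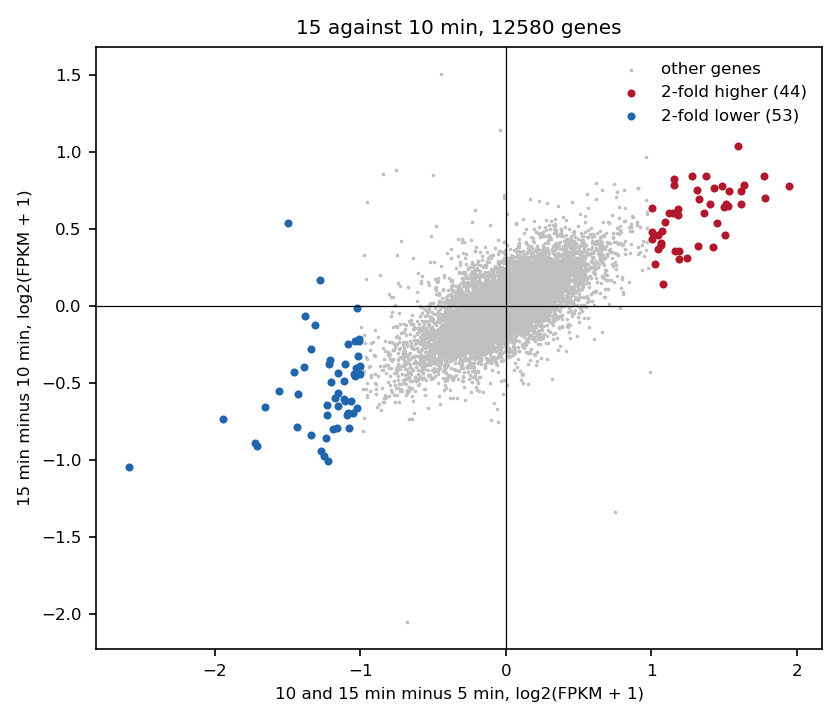
Each gene's difference of 15 min minus 10 min is plotted against its difference of 10 and 15 min minus 5 min, both on the log2(FPKM + 1) scale. All 44 higher genes (red) lie above the horizontal zero line, and 51 of the 53 lower genes (blue) lie below it.

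Of the 7 genes that were 2-fold apart between 15 and 10 min, 3 (0.0238%) were higher and 4 (0.0318%) lower at 15 min. They are named for that after their values were seen, and 3 of them were among the 97. Cre05.g239450 (32.9 FPKM at 15 min, against 15.5 at 10 min) was higher at 15 min, and HYDEF1 and Cre13.g603550 were lower. NSG1, a further one, had 18.4 FPKM at 15 min, against 7.78 at 10 min, with 12.4 at 5 min, so the columns at 15 and 10 min lay on opposite sides of 5 min and its difference was -0.04. Cre11.g467672 was likewise higher at 15 min (6.24 FPKM, against 1.55 at 10 min), and Cre10.g456226 (0.738 FPKM, against 6.21) and Cre09.g406448 (0.0800 FPKM, against 1.74) were lower. In all, 1998 genes (15.9%) had their 10 and 15 min values on opposite sides of 5 min.

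Over the other sampling points the 2 sets of genes had courses of opposite shape. The median of the higher genes was 6.39 FPKM pre-wash, 3.73 post-wash and 7.86 at 5 min. It was 17.3 FPKM at 10 min, 31.9 at 15 min and 34.1 at 30 min, and then 22.7 FPKM at 60 min, 9.76 at 120 min and finally 6.66 at 240 min. The median of the lower genes was 3.80 FPKM pre-wash, 23.2 post-wash and 12.5 at 5 min. It was 6.12 FPKM at 10 min, 4.07 at 15 min and 0.924 at 30 min, and then 1.35 FPKM at 60 min, 3.56 at 120 min and finally 2.74 at 240 min. Most higher genes, 29, peaked at 30 min, while 8 peaked at 15 min, 5 at 60 min, and LCI1 and LHCSR3.1 at the last sampling. Of the lower genes 51 peaked directly after the wash and 2, MMP4 and Cre06.g273100, at 5 min, and 33 had their minimum at 30 min.

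**Figure D5:**
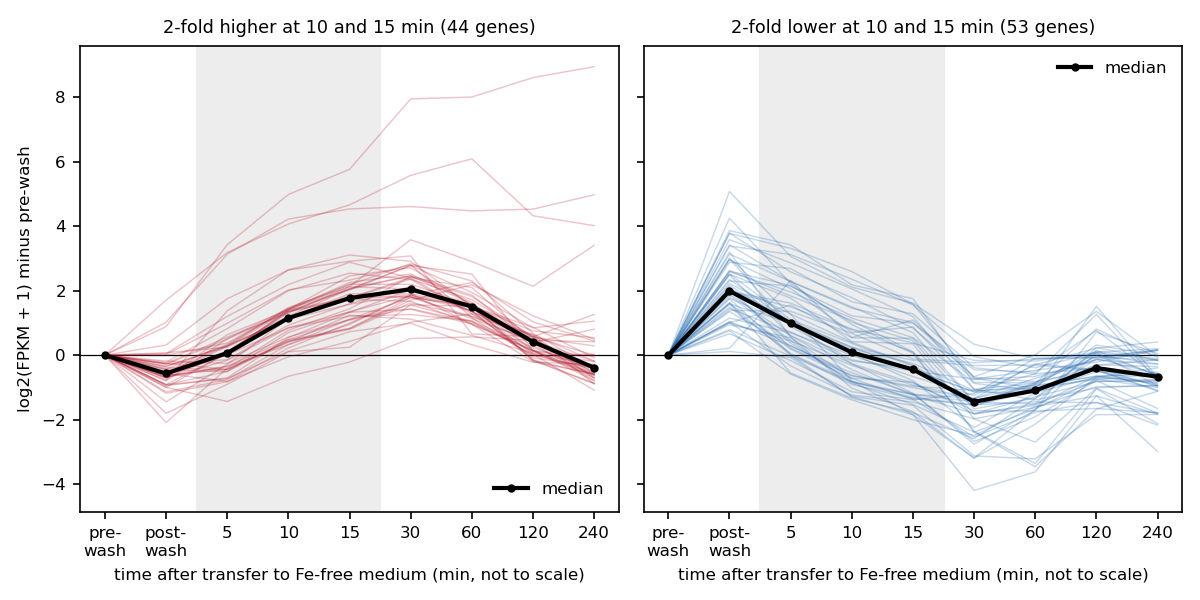
Log2(FPKM + 1) relative to the pre-wash sample at the 9 sampling points, in time order and not to scale, for the 44 higher (left) and 53 lower (right) genes as thin lines and their median as a black line, with 5, 10 and 15 min shaded. The median of the higher genes is -0.57 after the wash and 2.04 at 30 min, and that of the lower genes is 1.99 after the wash and -1.44 at 30 min.

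Comparisons that share no sampling point with 10, 15 and 5 min were set beside these counts. The interval from post-wash to 30 min encloses that from 5 to 15 min, so the change that chose the genes is part of it. Counts at 30 min against post-wash are therefore not independent of the choice. At 30 min against post-wash, all 44 higher genes were 2-fold higher, against 8.92% of all genes, and they made up 3.92% of the 1122 genes higher there. Likewise 52 of the 53 lower genes were 2-fold lower at 30 min than post-wash, against 10.1% of all genes, which is 4.08% of the 1274 genes lower there. The remaining gene was MMP4, with 0.708 FPKM at 30 min, against 2.15 post-wash. At post-wash against pre-wash, 46 of the 53 lower genes were 2-fold higher, against 8.47% of all genes, and they were 4.32% of the 1065 genes higher after the wash. Of the 44 higher genes, 2 were 2-fold higher after the wash, against the same 8.47%, and 6 were 2-fold lower, against 1.18% of all genes. In sign, 37 of the 44 were lower post-wash than pre-wash, against 50.3% of all genes, with a median of -0.57, and 23 had their lowest value of the course post-wash, against 13.6% of all genes. At 240 min against pre-wash, a comparison added after the data were seen, 6 of the 44 higher genes were 2-fold higher and 1 lower, and of the 53 lower genes 13 were 2-fold lower and 0 higher, against 4.38% higher and 4.94% lower among all genes.

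The 2-fold limit cut through a continuum. The gene just inside it on the higher side was Cre12.g548550, with a difference of 1.00, and just outside lay Cre02.g120200 with 0.99. On the lower side Cre08.g358573 was just inside, with 0.855 and 0.417 FPKM at 10 and 15 min, against 2.25 at 5 min, and Cre11.g467599 was just outside with -0.99. All 5161 genes left out for low values were within 2-fold. That was largely fixed in advance, because values below 1 FPKM cannot be 2-fold apart with a pseudocount of 1.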

How the data were processed

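RNA of 2 cultures at each of 9 time points was measured, and the deposited table gives 1 FPKM value per gene and time point, which the authors made from both cultures together. STAR 2.4.1 and Cuffdiff 2.0.2 are named in the submitters' processing notes, and gene identifiers follow annotation v5.6 per the file headers. Scaling between libraries and use of strand are not given in the sources used here, so reads of overlapping or near-identical genes may not be told apart. Another 9 columns of values were not used.

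Values were put on the log2(FPKM + 1) scale, and genes with at least 1 FPKM in at least 2 columns were kept. A pseudocount of 1 understates the difference of weakly expressed genes. A gene counted as higher or lower when the mean of the 10 and 15 min columns differed from the 5 min column by at least 2-fold on that scale. With 1 combined column per time point, the planned linear model (limma), fits with a replicate block or without single cultures could not be made, and no error or p-value is given.

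The comparison, the 26 gene lists, the rule for naming genes and the alternatives were chosen with earlier results of these data known. The naming rule used genes that reached 5 FPKM in 1 or more of the 3 columns with the same direction at 10 and 15 min. Of these it took the 15 each way with a symbol and the 5 each way without one that differed most. It added all members of the CO2-concentrating, photoprotection and iron assimilation lists, and up to 4 members of every other list with the largest differences. The text leaves out some of these members, among them LCI9 (0.54), LCI6 (0.01), the LCI11 genes (0.13 and -0.12), TEF22 (0.36) and CGLD27 (0.37). Further list members and genes are named where a range, count or course is described, and these were chosen after their values were seen. Symbols and products come from the deposited table, and 8 genes whose symbol matched a list but whose product named another protein were left out, a check made after seeing the data. RefSeq genes of assembly Chlamydomonas_reinhardtii_v5.5 matched 17738 of the identifiers and served only to find neighbouring genes. The planned search of promoters for a motif was not run, as promoter sequences were not used here.

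The alternatives tried were quantile normalization, median-of-ratios scaling, a pseudocount of 0.1, all genes without a filter, a filter at 5 FPKM in 2 columns, and either later column alone. Counting was checked on simulated data. Python 3.11.15, numpy 2.4.6, pandas 2.3.3 and matplotlib 3.10.9 were used.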

Additional observations from a re-analysis of the deposited data

How the results depend on the processing

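The counts of genes past 2-fold depended most on the pseudocount and on which later column was used. With a pseudocount of 0.1, 118 genes were higher and 156 lower, and these include all 44 and 53 genes of the report. That inclusion was fixed in advance, because a smaller pseudocount enlarges any difference of the same direction at 10 and 15 min. The 10 min column alone gave 25 higher and 24 lower genes, and the 15 min column alone 93 and 120. At a limit of 1.5-fold there were 241 and 344 genes, and 23 and 18 genes were 2-fold at both later points. These last settings were chosen after seeing the data. Without a filter on low values (44 higher and 53 lower), with 5 FPKM or more in 2 columns (42 and 44), with quantile normalization (40 and 39) and with median-of-ratios scaling (41 and 53) the counts stayed within 1.5 times. The unchanged counts without a filter were largely fixed in advance, because values below 1 FPKM cannot be 2-fold apart with a pseudocount of 1. None of the 38 named genes past 2-fold had the opposite sign, where it had a value, under any of the 7 settings that replaced the scale, the filter or the later column (0 of 38). This was largely fixed in advance. The naming rule required the same direction at 10 and 15 min, and a filter or pseudocount does not change a sign. The median-of-ratios scaling factors at 5, 10 and 15 min were 0.025, 0.035 and 0.038 in log2, small beside a 2-fold difference. A list median moved by more than 0.168, the robust SD between the 15 and 10 min columns, in 1 case, the sulfate list with 5 FPKM or more (0.17 over 15 genes), and the cause was not tested beyond the fewer genes kept. List medians took the other sign only where they were within 0.05 of 0, namely in 2, 2, 3, 3 and 6 lists with 5 FPKM or more, quantile normalization, median-of-ratios scaling, 10 min alone and 15 min alone.

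No paired analysis was possible because each time point has 1 combined column for both cultures, and leaving out each culture in turn was not run for the same reason. Depth is unknown, so counting error cannot be given, and differences of genes with few FPKM are the least certain.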

Other observations

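Some groups of genes, most of them outside the lists, were looked at after the values were seen, so their counts are a description. Among genes of lipid synthesis and desaturation, BTA1, which makes the betaine lipid of this alga, had 63.7 FPKM at 10 min and 85.3 at 15 min, against 43.3 at 5 min (0.75 on the log2(FPKM + 1) scale). FAD7, a chloroplast omega-3 desaturase, had 261 and 329 FPKM, against 185 at 5 min (0.66), and CFA1, a cyclopropane fatty acid synthase, had 7.38 and 10.7 FPKM, against 4.50 at 5 min (0.85). Of the 13 genes in this group, 12 were above 0, against 47.7% of all genes, with a median of 0.38. Some of the 13, such as DGD1 and the diacylglycerol acyltransferase DGTT4, are also members of the acylglycerol metabolism list. Nucleolar and ribosome assembly genes had 12 of 13 above 0 (median 0.23) and proteasome subunits 15 of 16 (median 0.06). Mitochondrial import genes included TIM22A (0.80) and TIM17 (0.60), both inner membrane translocase subunits, and had 11 of 17 above 0 with a median of 0.07. Of 28 genes of starch synthesis and breakdown, 18 were below 0, against 52.3% of all genes, with a median of -0.10. In this group 2 genes, both amylases, were 1.5-fold lower, against 2.73% of all genes. The beta-amylase AMYB2 had 28.3 and 20.4 FPKM, against 46.7 at 5 min (-0.93), and the alpha-amylase AMYA1 had 34.1 and 25.8 FPKM, against 49.0 at 5 min (-0.70). Among other breakdown genes, the beta-amylase AMYB1 (-0.41), the glucan water dikinase GWD1 (-0.33) and the alpha-amylase AMYA2 (-0.18) were also below 0. The glucanotransferases DPE1 (-0.04) and DPE2 (0.07) and the debranching enzyme PUL1 (0.02) lay near 0. Synthesis genes lay on both sides of 0. The soluble starch synthase SSS2 was at -0.43, while the granule-bound synthase STA2 (0.48) and the branching enzyme SBE3 (0.40) were above 0.

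Of 27 cyclic nucleotide phosphodiesterase genes, 20 were below 0, against 52.3% of all genes, with a median of -0.15. Of the 27, 0 were 2-fold lower, against 0.421% of all genes. PDE10, PDE16, PDE31 and PDE3 were 1.5-fold lower, against 344 (2.73%) of all genes, and PDE22 was at 0.74. Of 15 genes with a CAM symbol, 13 were below 0, with a median of -0.14. The lowest were CAM19 (-0.68) and CAM12 (-1.01), the 1 gene 2-fold lower, against 0.421% of all genes. PSR1, a regulator of the response to phosphorus starvation, was at -0.83.

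Some genes past 2-fold were neighbours in the genome. Of 149 kept genes next to a 2-fold gene, 14 (9.4%) were 2-fold themselves, against 0.771% of all genes, which makes 7 neighbouring pairs. In 6 pairs the direction was the same, among them NRX2 with NRX3 and SULTR2 with the unnamed Cre17.g723400, which had 85.2 and 132 FPKM at 10 and 15 min, against 46.3 at 5 min (1.18). The remaining pair was of opposite direction, BCS1 (1.31) and Cre05.g234660, which had 9.81 and 7.22 FPKM, against 23.7 at 5 min (-1.39). The sources used here do not say whether counting used strand, and the part of shared reads in these pairs was not tested.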
